A study of Mus musculus with 45 samples.

Results

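Mouse chromosome 4 was measured by array comparative genomic hybridization in 45 primary mammary tumors from 8 genetically engineered mouse models. The chromosome was represented by 2499 non-control probes whose listed position in the mm8 build was on chromosome 4, where the array carried 42235 such probes over all autosomes and chromosome X. A further 8 probes of named genes on this chromosome were left out of the selection and are not analysed here. The probes ran from 3377972 to 155029031 (mm8) with a median spacing of 21362.5 bp, the widest gap was 3.05 Mb, and 352 probes carried no gene or cDNA name, while the rest had 1255 distinct names.

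All tumors were invasive mammary tumors taken from female mice, 1 array each, and all were hybridized against DNA of pooled mouse spleen, although another label field of the reference channel calls it normal mammary. In 5 models the MMTV promoter, which is active in mammary epithelium, drives c-Myc (MMTV-Myc, n = 5), the polyoma middle T antigen (MMTV-PyMT, n = 9), Her2/neu (MMTV-Her2/neu, n = 5), H-Ras (MMTV-HRas, n = 5) or Wnt1 (MMTV-Wnt1, n = 5). In the C3(1)-Tag model (n = 5) the C3(1) promoter drives the SV40 T and t antigens. The BRCA1-/-;p53+/- model (n = 5, called BRCA1 tumors here) combines floxed BRCA1 and heterozygous p53 with MMTV-cre, and the p53-/- tumors (n = 6) were transplants of tissue with floxed p53 and MMTV-cre. The sources give no ages, no strain for each tumor and no statement that the tumors came from different mice, so the p-values measure the spread between these tumors.

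In this assay tumor and reference DNA compete for the same spots, so the log2 ratio of the 2 dyes falls where the tumor has fewer copies than the reference and rises where it has more. Mouse chromosome 4 shares long blocks of genes with the short arms of human chromosomes 1 and 9, which are often lost in human cancer. It carries the type I interferon cluster, the chromatin remodelling gene Arid1a, the growth regulators Jun, Jak1 and Lck, and the microRNA genes of miR-34a and of the miR-200b, miR-200a and miR-429 cluster.

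Some microRNA genes of the chromosome are shown here because none of the probes is named for them and their place had to be read from neighbouring genes. The mature sequences are from RefSeq (GRCm38.p6), and capitals mark the seed, bases 2 to 8, which pairs with target transcripts. The set was chosen after the values were seen.
mmu-miR-30c-5p: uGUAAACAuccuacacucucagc
mmu-miR-30e-5p: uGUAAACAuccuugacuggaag
mmu-miR-34a-5p: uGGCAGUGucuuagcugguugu
mmu-miR-200b-3p: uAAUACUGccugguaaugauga
mmu-miR-429-3p: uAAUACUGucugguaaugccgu
mmu-miR-200a-3p: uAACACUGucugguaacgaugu
The 2 miR-30 genes share a seed, as do miR-200b and miR-429, while the seed of miR-200a differs from theirs.

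Ratios are given as Cy3 over Cy5 on the log2 scale, so that a negative value is a loss. This direction opposes the labels, which assign Cy5 to the tumor. It rests on the deposited interval calls, limited to those with 3 or more probes whose mean was 0.2 or larger in size (755 of 5412), of which 740 had the opposite sign to Cy5 over Cy3 at their own probes, 47 of 47 on chromosome 4. It also rests on a Brca1 probe on chromosome 11 (101340828 to 101340887, mm8), which lies in a gene floxed in the BRCA1 model and stood at a Cy5 over Cy3 log2 ratio of 3.97 ± 1.40 (SD, n = 5) there, against a median of -0.08 (range -0.78 to 0.64) in the other 40 tumors. In 4 of these 5 tumors the Cy3 signal was not well above background at the probe. Over all probes 2 pairs of arrays correlated below -0.3, C_Myc_04004021 with PyMT_11567 (r = -0.397) and with PyMT_11570 (r = -0.382), and the totals, model differences, called bins and 3 places are given with the sign turned under the processing alternatives. With the sign turned, losses and gains change places in every count.

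Some tumors stood apart before any result on chromosome 4. The tumors C3TAg_5RPT and H2N53 carry different model labels but had nearly the same genome-wide profile (r = 0.960 over autosomal 1 Mb bins, 0.217 over those of chromosome 4), as did C3TAg_7RPT and H2N61 (r = 0.928, 0.415 on chromosome 4), and C3TAg_5RPT also resembled H2N1 (r = 0.825), where the median over all 990 pairs was 0.0804. The Wnt1 probe of Wnt_4635 was at 0.07, while the other 4 tumors labelled MMTV-Wnt1 were at 1.07 or more and the tumors of the other models between -0.45 and 0.80. Single-probe noise ranged between arrays from an SD of 0.158 to one of 0.475, and between 95.9 and 99.7% of the chromosome 4 probes were well above background in both channels. None of these probes was saturated.

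Chromosome 4 was lost in 8 of 45 tumors (17.8%, exact Clopper-Pearson 95% interval 8.0 to 32.1%) and gained in 5 (11.1%, 3.71 to 24.1%), where a change means that at least 10% of the probes lay in segments with a mean of at most -0.2 or at least 0.2. The losses fell in 3 of 5 BRCA1, 2 of 5 C3(1)-Tag, 2 of 6 p53-/- and 1 of 5 MMTV-HRas tumors. None of the MMTV-Myc, MMTV-PyMT, MMTV-Her2/neu and MMTV-Wnt1 tumors reached the 10% share for loss, and for a model of 5 tumors a count of 0 allows a share of up to 52.2%. These counts of 0 changed with the processing. With loess 1 MMTV-Myc and 1 MMTV-PyMT tumor were lost, with the density-peak centre 1 MMTV-PyMT tumor, and with a running median of 11 probes 2 MMTV-Myc, 3 MMTV-PyMT, 1 MMTV-Her2/neu and 3 MMTV-Wnt1 tumors. The counts of the other models changed as well. BRCA1 tumors with loss numbered 1 at a threshold of 0.3 and 0 at 1.5 times the probe SD. By the deposited interval calls there were 1 BRCA1, 1 C3(1)-Tag and 0 p53-/- tumors with loss. With the running median MMTV-HRas had 4. Loss alone was seen in 6 tumors, gain alone in 3 and both in 2. In the remaining 34 tumors at most 5.65% of the probes were lost and at most 6.84% gained, and the chromosome mean lay between -0.16 and 0.18.

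The deepest loss was that of C3TAg2, with a chromosome mean of -0.88 and 99.4% of the probes in lost segments. Haras_An5_3RPT had a mean of -0.41 and lost 100% of the probes, in a pair of segments at -0.36 up to 116.6 Mb and at -0.48 beyond. The second C3(1)-Tag tumor, C3TAg_8_RPT, was at -0.29 with 100% of the probes lost. The 3 losses of the whole chromosome thus had different depths, with C3TAg2 far below the others.

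The p53-/- tumors P53_8546 and P53_1573 had means of -0.27 and -0.25, with 88.8 and 93.4% of their probes in lost segments. Their profiles were broken by short segments of either sign, and P53_1573 rose to 0.00 when arrays were centred on the highest point of the density of all ratios instead of the median. C3TAg_8_RPT stood at -0.10 with that centring. It left 7 tumors with loss, without these tumors and with PyMT_11570 added.

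The remaining 3 losses were in BRCA1 tumors and covered a part of the chromosome. Brcap53_503 lost 58.7% of the probes in segments at -0.22 and -0.24 that ran from 47.3 to 135.5 Mb. Brca_14 was lost from 87.2 to 136.3 Mb at -0.27 to -0.29, and was gained from the first probe to 86.8 Mb at 0.45 to 0.47 and again from 137.7 Mb to the end at 0.41 to 0.77. Brca_54 showed the opposite order. It was lost from the first probe to 104.3 Mb at -0.30 to -0.34, apart from 51 probes at 43.4 to 44.7 Mb at -0.06, and gained beyond 104.5 Mb at 0.34 to 0.86, apart from 25 probes at 123.3 to 124.4 Mb at -0.23 and shorter segments. In both tumors the parts cancelled in the chromosome mean, which was 0.15 in Brca_14 and 0.12 in Brca_54.

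The difference between the distal part (beyond 100 Mb) and the proximal part (up to 50 Mb) set these tumors apart from the rest. It was at least 0.2 in size in 2 tumors, Brca_14 (-0.47) and Brca_54 (0.73). Gains of most of the chromosome were seen in P53_5809 (mean 0.32, 83% of the probes), C3TAg_5RPT (0.23, 100%) and H2N53 (0.20, 89.7%). The latter pair are the tumors with nearly the same profile, and with the density-peak centring their means were 0.10 and 0.11.

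**Figure D1:**
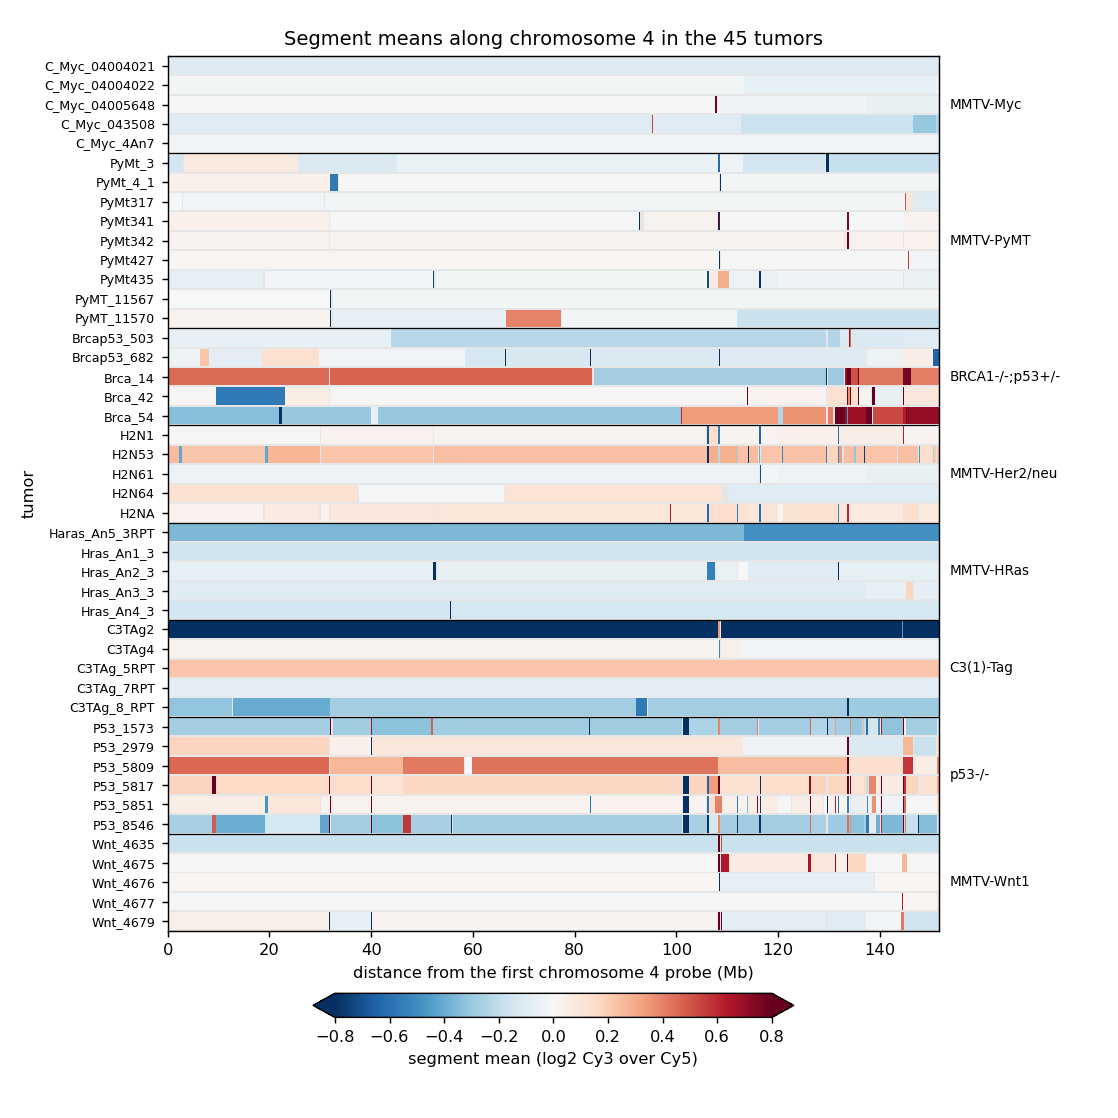
Segment means (log2 Cy3 over Cy5, colour) along chromosome 4 for each of the 45 tumors, grouped by model, with the distance from the first probe in Mb on the x axis. Blue is loss and red is gain. C3TAg2 is dark blue along its length, Brca_14 and Brca_54 change colour in opposite order, and the p53-/- tumors hold more of the short stripes than any other model, 79 of 209 short segments.

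Compared with the other autosomes, chromosome 4 was often lost and seldom gained. Its 8 tumors with loss placed it in rank 5 of 19, tied with chromosome 13, where the autosomes ranged from 1 to 16 tumors with a median of 5. Its 5 tumors with gain placed it in rank 14 (range 1 to 19, median 9). It was the lowest of all autosomes in 7 tumors. Of these, C3TAg2, Haras_An5_3RPT and Brcap53_503 were counted as lost. The others, C_Myc_04004022 (mean -0.04), C_Myc_043508 (-0.13), C_Myc_4An7 (-0.03) and PyMt435 (-0.04), were not. In the remaining tumors with loss its rank from the lowest was 6 in P53_8546, 7 in P53_1573, 8 in C3TAg_8_RPT and 16 in Brca_14 and Brca_54. It was the highest in Wnt_4675 only. These ranks are a description, with no test.

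The mean log2 ratio over the chromosome was then compared between each model and the other 7. C3(1)-Tag had the lowest model mean, -0.21 ± 0.42 (SD, n = 5). Its tumors were at -0.88 in C3TAg2, -0.29 in C3TAg_8_RPT, -0.08 in C3TAg_7RPT, 0.002 in C3TAg4 and 0.23 in C3TAg_5RPT. C3TAg2 was below every tumor of the other models and the other 4 lay within their range, and the model's difference of -0.175 did not pass the test (two-sided exact permutation p = 0.060, adjusted p = 0.435 over 8 models). It rested on C3TAg2, without which the difference was -0.006 (p = 0.93, exact permutation test). With the 4 near-identical tumors left out it was -0.355 (exact permutation p = 0.0091, adjusted p = 0.0728), and the adjusted p ranged from 0.0728 to 0.933 over all alternatives.

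MMTV-HRas tumors had the next lowest mean, -0.18 ± 0.14 (SD, n = 5). Haras_An5_3RPT was at -0.41 and the other 4 at -0.16, -0.14, -0.09 and -0.08, so that each tumor was below 0. The same held for the 5 MMTV-Myc tumors, which lay between -0.13 and -0.02. With the density-peak centring Hras_An3_3 was at 0.04. The difference of MMTV-HRas from the other models was -0.142 (exact permutation p = 0.11, adjusted p = 0.435). It ranged from -0.167 to -0.083 when a tumor was left out. MMTV-Her2/neu tumors had the highest mean, 0.05 ± 0.10 (SD, n = 5), with a difference of 0.111 (exact permutation p = 0.19, adjusted p = 0.50). The means of the other 5 models lay between -0.06 and 0.01, and their differences from the rest between -0.016 and 0.072, with adjusted p of 0.65 or more by the exact permutation test.

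Arrays lay on 18 slides with 10 scan dates. Permuting within slides gave C3(1)-Tag a difference of -0.428 (exact permutation p = 0.125, where the smallest possible was 0.0625), and no slide held a BRCA1, MMTV-HRas or p53-/- tumor together with another model. Within scan dates the difference was -0.166 for C3(1)-Tag (exact permutation p = 0.203) and -0.375 for MMTV-HRas (p = 0.4, where the smallest possible was 0.2). No scan date held a BRCA1 tumor together with another model, so no within-date value could be had for that model, whose tumors spanned 3 slides and 2 dates.

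**Figure D2:**
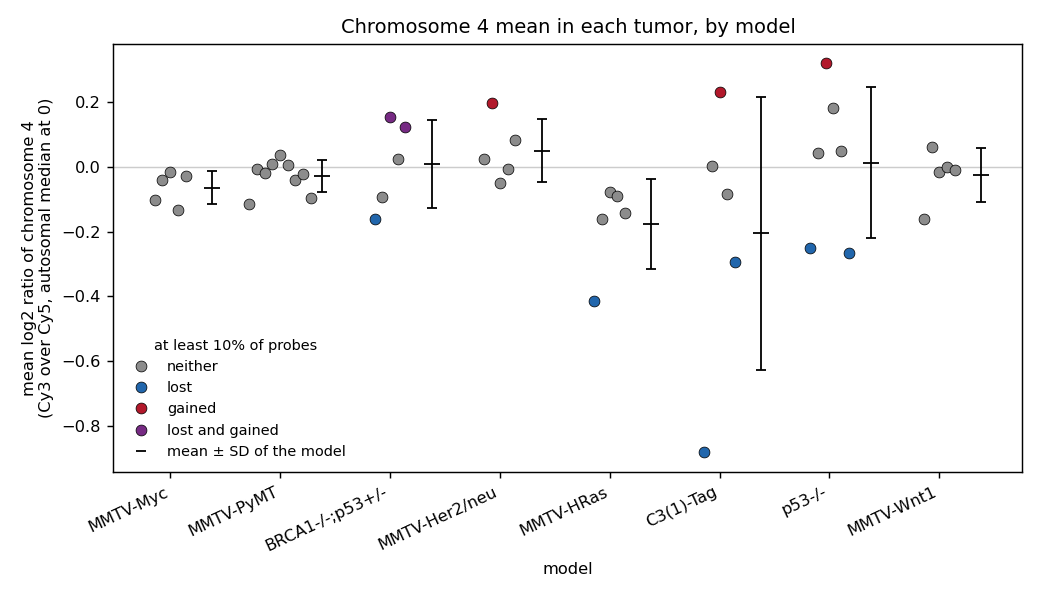
Mean log2 ratio (Cy3 over Cy5) over the 2499 chromosome 4 probes for each tumor, by model. Points are tumors, coloured by whether at least 10% of their probes were lost or gained, and the line with its error bar beside them is the model mean and SD. The C3(1)-Tag points spread from -0.88 to 0.23, while all 5 MMTV-HRas points and all 5 MMTV-Myc points are below 0.

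Bins of 1 Mb were next compared between models with limma over all autosomes, 133 bins on chromosome 4 of 2057. BRCA1 tumors were higher than the other models at 2 chromosome 4 bins and lower at 0, where 0.389% of all autosomal bins were called higher, 2.09% lower and 2.48% in either direction. The bin at 137 to 138 Mb holds Ece1, Eif4g3, Pink1, the kinase that marks damaged mitochondria, and Cda. The BRCA1 mean there was 0.28 ± 0.42 (SD, n = 5) and the difference 0.37 (SE 0.11, limma adjusted p = 0.0453). The bin at 152 to 153 Mb holds Dffb, a nuclease of apoptotic DNA fragmentation, Lrrc47 and Wdr8. Its mean was 0.24 ± 0.35 (SD, n = 5) and the difference 0.41 (SE 0.10, limma adjusted p = 0.0295). The tumors ranged from -0.16 to 0.80 in the first bin and from -0.19 to 0.62 in the second, and both overlapped the other models. Leaving out Brca_14, Brca_42 or Brca_54 ended both calls, and leaving out Brcap53_503 raised their number to 12, beside 141 of 2057 autosomal bins. With slide as a random block the number of called bins was 2, and with normexp background correction or array weights it was 0.

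MMTV-Wnt1 tumors were higher at 1 bin of chromosome 4, which was the only bin called in this comparison (0.0486% of all autosomal bins). It lay at 111 to 112 Mb, within the Skint genes, a family encoding selection and upkeep proteins of skin T cells. The mean was 0.95 ± 0.89 (SD, n = 5, lowest 0.02 and highest 1.82), against -0.30 to 0.65 in the other models, a difference of 0.92 (SE 0.14, limma adjusted p = 8.62e-05).

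No chromosome 4 bin was called for the other 6 models by limma. The share of autosomal bins called in those comparisons was 0.438% for MMTV-Myc, 2.72% for MMTV-PyMT, 0% for MMTV-Her2/neu and C3(1)-Tag, 17.8% for MMTV-HRas and 7.1% for p53-/-. At an unadjusted p under 0.05, limma had 1 chromosome 4 bin for MMTV-Myc, 2 for MMTV-PyMT, 3 for MMTV-Her2/neu, 2 for MMTV-HRas, 12 for C3(1)-Tag and 2 for p53-/- tumors. Over all 2057 autosomal bins these numbers were 138, 283, 461, 638, 92 and 494 in the same order. Leaving out P53_1573 gave 2 called bins for p53-/- tumors, and leaving out P53_5851 or P53_8546 gave 1, beside 209, 230 and 107 autosomal bins.

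The number of tumors with a loss was 7 in the median bin, at most 8, and fell to 3 at 141 to 143 and 148 to 149 Mb. The highest number was reached in 19 bins, of which 16 formed a run from 87 to 104 Mb that was lost in the same 8 tumors throughout. The run began where the loss of Brca_14 began and ended where that of Brca_54 ended, and the other 6 tumors were lost far beyond it on either side. Of the bins at 8 tumors, those at 23 to 24, 109 to 110 and 123 to 124 Mb lay outside the run. Gains were shared by 3 to 9 tumors, with a median of 4.

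**Figure D3:**
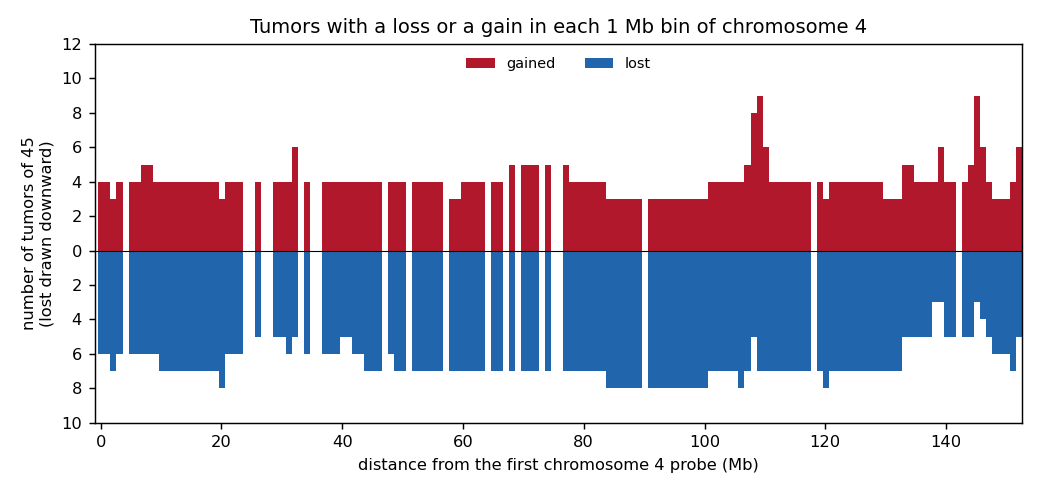
Number of tumors with a gain (red, upward) and with a loss (blue, downward) in each 1 Mb bin of chromosome 4 with at least 3 probes, against the distance from the first probe in Mb. Losses reach 8 tumors over a run of bins near the middle and fall to 3 near the distal end, where gains reach 9.

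Within the run the probe with the lowest mean in the 8 tumors was one of Nfia, a transcription factor of the nuclear factor I family, at 97601862 to 97601921. It stood at -1.06 ± 0.77 (SD, n = 8), between -2.37 and 0.13, against a median of -0.07 in the other tumors. C3TAg_8_RPT had a further step down to -0.57 over 20 probes at 95.5 to 97.6 Mb, which hold Cyp2j genes of the cytochrome P450 family and Nfia. A probe of Jak1, a kinase of cytokine receptors, was at -0.67 ± 0.38 (SD, n = 8) and one of Cyp2j13 at -0.50 ± 0.28 (SD, n = 8). Their medians in the other tumors were -0.20 and -0.004. Both were the lowest probes of their own 1 Mb bins only. Other probes of the run were lower, such as those of the cDNAs AK038336 (-0.93) and BC089005 (-0.74). The lowest probes of the bins were thus unequal, and each is a single probe.

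Genes at the proximal end of the run were lost in the same tumors. The interferon genes Ifnb1 and Ifna, the Mllt3 gene of the super elongation complex, the Dmrta1 gene and the neuronal RNA-binding protein gene Elavl2 were each lost in 8 tumors and gained in 3. The mean over all probes of a gene was as low as -0.86 for Mllt3 and for Elavl2, both in C3TAg2. The lowest values of Ifnb1 (-1.06 in C_Myc_04004021) and Dmrta1 (-0.82 in Brcap53_682) were in tumors not counted as lost. All 5 of these genes were measured. Over all member probes the number of tumors with a loss ranged from 2 to 14 with a median of 7, so that 8 was close to the middle.

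Tumor suppressor genes of the chromosome were lost in 3 to 12 tumors with a median of 6.5, and gained in 3 to 9 with a median of 4. Of 17 listed genes 14 were measured. The chromatin remodeller Chd5 was lost in 6 tumors and gained in 3, with values from -1.11 in C3TAg2 to 0.75 in Brca_54. Cdkn2c, an inhibitor of cyclin D kinases, was lost in 7 and gained in 4, from -1.01 to 0.49 in the same tumors. The kinesin gene Kif1b and the histone methyltransferase gene Prdm2 were each lost in 3 tumors, and gained in 9 and 7. The gains of Kif1b include segments with medians of -0.0002 in P53_2979, 0.10 in P53_5851 and 0.03 in Wnt_4675, where the means were 0.27, 0.45 and 0.26. These counts lie beside a median of 7 tumors with loss and 4 with gain over all member probes.

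The highest counts in this list were those of Arid1a and Klf4, and part of each came from segments of 5 probes. Arid1a was counted as lost in 12 tumors. Of these, 7 were also lost in the bins at 132 to 133 and 133 to 134 Mb as a whole and PyMt_3 over 26 probes, while Brca_42, Brca_54, P53_5817 and P53_5851 were counted through segments of 5 probes. Of its 3 probes, which carry cDNA names on the array, that at 133021950 to 133022009 reached -3.89 in Brca_42 and 2.31 in Wnt_4679, and was at -2 or below in 7 tumors, while the other 2 did not fall below -1.25. Klf4, a zinc finger transcription factor, was counted as lost in 9 tumors, 6 through segments of 109 probes or more and 3 MMTV-Her2/neu tumors, H2N1, H2N53 and H2NA, through a segment of 5 probes with a median of -0.17, 0.08 and -0.11. Its probe at 55553172 to 55553231 fell to -3.31 in PyMt435, and the neighbouring 2 probes to -0.94 and -1.08.

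The DNA repair genes and the growth-promoting genes had the counts of the chromosome as a whole. All 7 repair genes were measured and lost in 6 or 7 tumors. Nbn, a subunit of the double-strand break sensor, the base excision repair gene Mutyh and the recombination gene Rad54l were each lost in 7 and gained in 4. Of 19 growth-promoting genes 18 were measured, lost in 5 to 8 tumors with a median of 7. The transcription factor gene Jun, Jak1 and the Ski gene were each lost in 8 tumors and gained in 3, while Frap1, which encodes the mTOR kinase, was lost in 5 and gained in 4. Of the multicopy families 4 of 10 were represented, lost in 3 to 7 tumors. All lists were chosen with results of these data known, and nothing is tested on them.

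The microRNA genes shown above were counted by the segments around them, from which the probes beside the genes departed in some tumors. The miR-30c and miR-30e genes lie between Nfyc and Rims3 (120.263 to 120.386 Mb, 4 probes), where 7 tumors were lost and 4 gained. The mean of the 4 probes ranged from -0.89 in C3TAg2 to 0.42 in Brca_54 with a median of -0.08. The gene of miR-34a, a microRNA induced by p53, lies between H6pd and Gpr157 (148.839 to 148.947 Mb), where 4 tumors were lost and 6 gained, from -0.72 in C3TAg2 to 0.76 in Brca_54. Here the probes of Brca_14 were at 0.14 in a segment at 0.77, those of P53_8546 at -0.64 in one at -0.19 and those of P53_2979 at 0.01 in one counted as gained at 0.27. The miR-200b, miR-200a and miR-429 genes, whose products repress Zeb transcripts, lie between Ttll10 and 9430015G10Rik (154.886 to 154.968 Mb), where 5 were lost and 6 gained. Of the lost tumors, C3TAg2 was at -1.01, Brcap53_682 at -0.83, Haras_An5_3RPT at -0.28, C3TAg_8_RPT at -0.26 and C_Myc_043508 at -0.23. The same probes were lower than the last 3 of these in tumors not counted as lost, P53_8546 (-0.48), Hras_An4_3 (-0.40), Hras_An3_3 (-0.33), Hras_An1_3 (-0.32) and P53_1573 (-0.32), and P53_5817, counted as gained, was at -0.09. By the segment counts, the 2 neighbourhoods near the distal end were lost in fewer tumors than the miR-30 genes and gained in more.

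A loss limited to the Arid1a region was found in a single MMTV-PyMT tumor. In PyMt_3, 26 probes from 132.72 to 133.29 Mb had a mean of -1.04 (probe SD 0.35), with steps of -0.89 and 0.86 from the neighbouring segments, and the 10 probes on each side were at -0.05 and -0.09. The other 8 MMTV-PyMT tumors lay between -0.09 and 0.26 over the same probes. The segment took in Nudc, Nr0b2, Gpatch3, Zdhhc18, Pigv, Arid1a, a subunit of the SWI/SNF chromatin remodelling complex, Rps6ka1, Hmgn2, Dhdds and Lin28, the RNA-binding protein that blocks let-7 maturation. All 3 Arid1a probes were low, at -0.60, -1.25 and -0.64, and the lowest probe was that of Nr0b2 at -1.56. The median of the 26 probes was -1.08.

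Further changes of at least 20 probes were limited to a part of the chromosome. In Brcap53_682 the last 76 probes, from 153.82 Mb to the end, had a mean of -0.64 and a median of -0.71. In Brca_42 a block of 116 probes at 12.89 to 26.42 Mb was at -0.57. PyMT_11570 was gained at 0.40 over 39 probes at 69.88 to 80.79 Mb, with a break beside Cdk5rap2, a centrosome gene, and one beside Mpdz. In C_Myc_043508, the only MMTV-Myc tumor with a called segment of this length, 88 probes from 149.96 to 154.34 Mb were at -0.30 and the last 53 probes, from 154.39 Mb to the end, at -0.22. None of these places was private to its tumor. The bins within the Brca_42 block from 13 to 23 Mb were lost in 7 tumors, the bin at 154 to 155 Mb in 7, and the bins within the PyMT_11570 gain from 71 to 81 Mb were gained in 5, mostly within changes of the whole chromosome or long parts of it.

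The Skint bin of MMTV-Wnt1 tumors came from 9 probes at 111.57 to 111.96 Mb, among them probes of Skint4, Skint3 and Skint9. Their mean was 4.09 in Wnt_4635, 3.58 in Wnt_4675 and 4.49 in Wnt_4679, but -0.36 in Wnt_4676 and -0.01 in Wnt_4677. The tumors of the other models were between -0.57 and 0.81. High values were thus limited to 3 of 5 tumors labelled MMTV-Wnt1, of which Wnt_4635 had no raised Wnt1 probe, and the mean of the 10 probes on either side of the place was 0.48 or below in these 3. The next bin, at 112 to 113 Mb with 6 probes, was also counted as gained in these 3 tumors and in 6 others.

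These ratios were taken against a Cy5 signal near background. In the 3 tumors the Cy3 signal was well above background at 9 of 9 probes, but the Cy5 signal at 1, 1 and 2 probes. The median Cy3 signals were 389, 593 and 600, against median Cy5 signals of 19, 41.1 and 23.8. With the lowest Cy5 signal that was well above background on the array as a floor, Cy3 was at least 6.69-fold, 5.95-fold and 11.1-fold brighter. In Wnt_4676 and Wnt_4677 the Cy3 signal was well above background at 2 probes each and the Cy5 signal at 1 and 0. Wnt_4675 shared its slide with both of these tumors, while Wnt_4635 and Wnt_4679 were on other slides. The call for the bin was lost with normexp background correction, with bright probes alone and with 2 Mb bins.

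**Figure D4:**
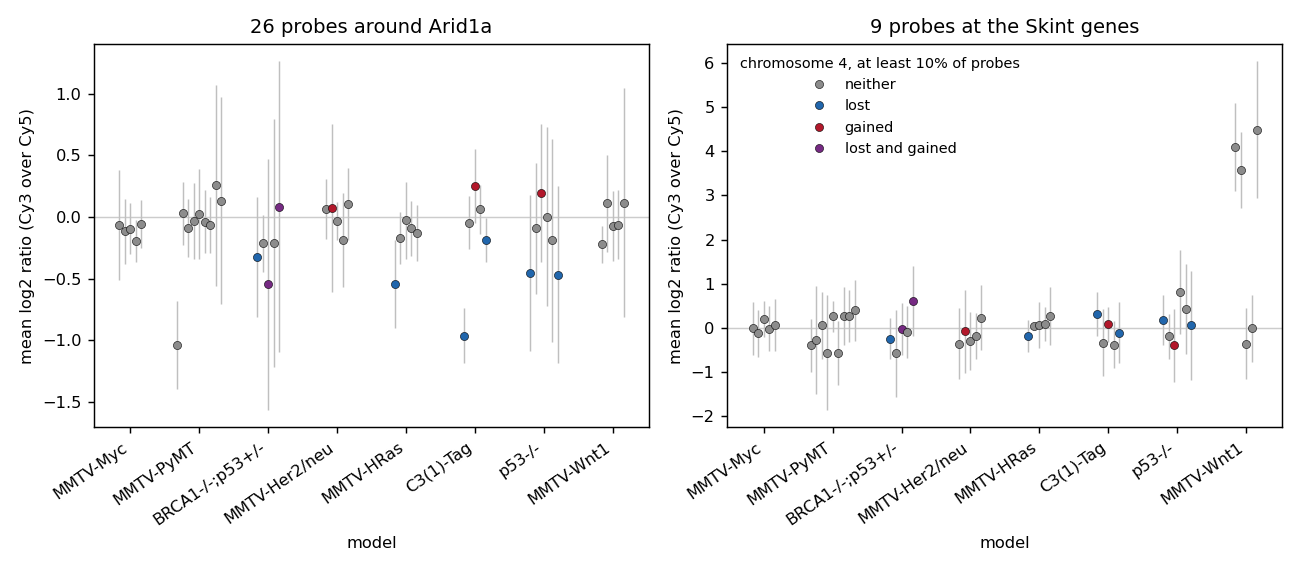
Mean log2 ratio (Cy3 over Cy5) of the 26 probes around Arid1a (left) and of the 9 probes at the Skint genes (right) in each tumor, by model, with the SD over those probes as the error bar and colour for tumors with loss or gain of the chromosome. PyMt_3 is at -1.04 around Arid1a without a loss of the chromosome, and at the Skint genes 3 MMTV-Wnt1 tumors are at 3.58 or more while all other tumors are at 0.81 or less.

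Short segments made up most of the segments called. Of the 580 segments on the chromosome, 209 were at most 3 Mb long with a mean of at least 0.5 in size, 115 of them gains and 94 losses in 36 tumors. They were spread unevenly, with 79 in the 6 p53-/- tumors (3 to 24 each), 36 each in MMTV-Her2/neu and BRCA1 tumors, 29 in MMTV-PyMT, 17 in MMTV-Wnt1, 7 in MMTV-HRas, 3 in C3(1)-Tag and 2 in MMTV-Myc tumors. Most held few probes. Of the 209, 151 held exactly 5 probes, 18 held at least 10, and 131 had a median under 0.5 in size although their mean was at least 0.5.

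The same short places came back in many tumors and in both directions. The segments fell into 48 places, of which 30 were seen in at least 2 tumors, 21 in at least 4 and 9 with gain in one tumor and loss in another. The most shared place, at 147.80 to 149.96 Mb, was gained in 18 tumors through 23 segments, of which 6 had a median of at least 0.5 in size. No 1 Mb bin of the chromosome was counted as gained in more than 9 tumors. A place at 35.01 to 36.91 Mb was gained in 11 and lost in 4, and one at 136.33 to 137.51 Mb, beside the first BRCA1 bin, was gained in 11 and lost in 2. Arid1a lay in a place lost in 10 tumors and gained in 1, of which 3 segments had a median of at least 0.5 in size.

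Single probes far from their neighbours were found at these places. Of the members, 148 (5.92%) had a log2 ratio of at least 2 in size in at least 1 tumor, 49 of them in at least 4 tumors and 17 in both directions. For 114 of the 148 the neighbouring probes had a median under 0.5 in size. In 79 of 478 such values (16.5%) one of the channels was not well above background, and in the others both channels were.

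A probe of the cDNA BC014793, which lies in the most shared of the short places, was at 2 or more in 18 tumors and at -2 or less in 2, from -2.46 to 4.97. Artn, a ligand of the GDNF family, and Foxo6, a forkhead transcription factor, were each at -2 or less in 11 tumors, and both in the same 11. Mobkl2b was at 2 or more in the p53-/- tumors P53_1573, P53_5817, P53_5851 and P53_8546 and at -2 or less in 4 tumors of other models, from -7.23 to 6.35. What these probes have in common beyond the tumors they mark was not tested.

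Breakpoints, the ends of neighbouring segments that differ by at least 0.2, numbered 512 in 38 tumors, and 497 of them lay within 1 Mb of a breakpoint in another tumor. Most bounded short segments. With segments under 20 probes taken out, an alternative chosen after seeing the data, 53 breakpoints remained in 16 tumors, 29 of them shared. Of the 53, 23 were in p53-/- tumors (6 of 6), 17 in BRCA1 tumors (4 of 5) and 6 in MMTV-PyMT tumors (2 of 9), while MMTV-HRas, C3(1)-Tag and MMTV-Wnt1 had 2 each, MMTV-Her2/neu 1 and MMTV-Myc 0. The order of the models at the top differed before this step, when p53-/- had 202 and MMTV-Her2/neu 99.

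The windows with the most of these breakpoints were near the distal end. The window from 145 to 150 Mb held 12 in 6 tumors and that from 140 to 145 Mb held 9 in 4 tumors, where most windows held 2 or fewer. P53_2979 and P53_5809 stepped up by 0.39 and 0.43 between the same 2 probes, those of Dffa, an inhibitor of the apoptotic nuclease Dffb, and Cort, at 147.96 to 147.97 Mb. Both stepped down again between probes at 149.96 and 150.02 Mb, as did the MMTV-HRas tumor Hras_An3_3 by 0.25. The 64 probes between had means of 0.27 and 0.56 but medians of -0.0002 and 0.31, and 18 of the 64 were at 0.5 or more in P53_2979. Mean and median also differed in other segments ending in these windows, with a mean of 0.45 and a median of 0.10 in P53_5851, 0.26 and 0.03 in Wnt_4675 and 0.39 and 0.19 in P53_5817, but were close in others, at 0.43 and 0.47 in Brca_14 (139.28 to 147.98 Mb), 0.53 and 0.61 in Brca_54 and -0.36 and -0.39 in P53_8546. P53_5817 and P53_8546 shared breaks between Atp13a2 and Hspb7 at 140.26 to 140.70 Mb and beside Pramel1 at 142.67 to 143.73 Mb. P53_5809 and P53_8546 both had a break at Ccnl2, at 154.66 Mb. At each of these shared breaks the step had the same direction in every tumor named. It was -0.29 in P53_5817 and -0.24 in P53_8546 before Hspb7, and -0.32 and -0.28 beside Pramel1. At Ccnl2 it was 0.31 in P53_5809 and 0.23 in P53_8546. The segments they bounded differed in level, and some of them in sign.

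**Figure D5:**
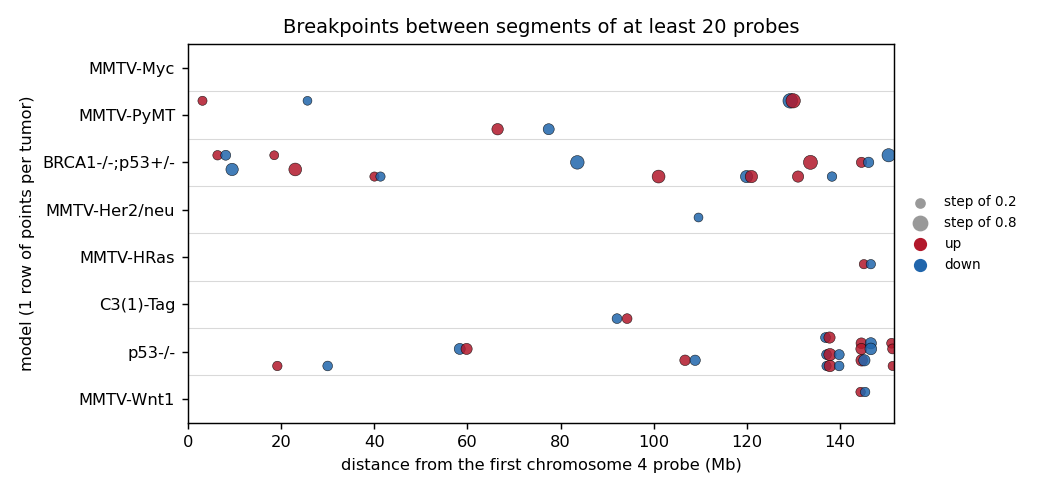
The 53 breakpoints between segments of at least 20 probes, by model, with a line of points for each tumor and the distance from the first probe in Mb on the x axis. Point size is the step in log2 ratio, red for a step up and blue for a step down. The p53-/- tumors hold 23 of them, most near the distal end, and the MMTV-Myc tumors 0.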

How the data were processed

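Genomic DNA from 45 tumors and the spleen reference was labelled with Cy3 or Cy5 and hybridized to Agilent 2-colour arrays by the authors. The deposited scanner files hold, per spot, the mean and background intensity of each channel, the processed intensity, already background-subtracted and dye-normalized by Feature Extraction, and the ratio as log10 (LogRatio). Per the labels the software was Feature Extraction 10.7, and per the file headers it was 9.5.1.1. A deposited table of intervals, called per tumor by the authors, gives mean log2 values and was used for the direction of the ratio and as an alternative set of calls. Filtered copies of that table were not used. Positions are those of the mm8 build given in the files, and no genome of that build was used.

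From LogRatio, log2 ratios were turned to Cy3 over Cy5 and centred per array on the median of the autosomal probes. Control spots and outlier flags were left out (0 to 60 of the 2499 members without a value in a tumor), spots of 1 probe were averaged, and no loess was applied. Segments came from circular binary segmentation (split statistic over 6, at least 5 probes) and were called at 0.2. Bins of 1 Mb with at least 3 probes were medians. Model means were compared by two-sided exact permutation tests with Benjamini-Hochberg adjustment over 8 models, and bins with limma 3.58.1 in R 4.3.3, adjusted within each comparison. The other steps used Python 3.11.15 with numpy 2.4.6, scipy 1.17.1, pandas 2.3.3 and numba 0.67.0, with matplotlib 3.10.9 for figures, and both procedures were tested on simulated data. With 1 array per tumor, precision is limited by the number of arrays.

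Of the gene names, 887 matched RefSeq genes of chromosome 4. MicroRNA genes were placed between their RefSeq neighbours. The named genes were those of the lists, the lowest probe of the run lost in most tumors, and genes at short segments and shared breakpoints. The members and lists were chosen with earlier results of these data known. Alternatives were the dye direction, the centre, background correction, loess, bright probes, thresholds, segmentation, slide and date, bin size, array weights and leaving out tumors. A further 2 were added after seeing the data, the removal of segments under 20 probes and leaving out PyMT_11567 and PyMT_11570.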

Additional observations from a re-analysis of the deposited data

Results flagged for a closer look

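In 13 of the 72 groups of 4 to 10 tumors examined, the highest or lowest tumor lay further from the others than Dixon's critical value at the 95% level, where chance gives about 1 in 20 groups. Several of these are the same tumor seen through several measures. Where all other tumors of a model were at 0%, any other value stands apart by construction, and the probes around Arid1a were chosen for the loss of PyMt_3, so these cannot be set against chance.

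Haras_An5_3RPT stood apart among 5 MMTV-HRas tumors in 4 measures. Its chromosome 4 mean was -0.414 against -0.161 to -0.0778 in the others, its distal mean was -0.451, its share of lost probes was 100% against 0 to 1.36%, and its mean over the 26 probes around Arid1a was -0.542. Among 5 MMTV-Wnt1 tumors Wnt_4635, whose Wnt1 probe was not raised, was lowest, with a proximal mean of -0.167 against -0.0134 to 0.00628 and a middle mean of -0.189 against 0.00757 to 0.0613. C_Myc_043508 stood apart among 5 MMTV-Myc tumors with 5.65% of its probes lost, where the others had 0%, and with a mean of -0.263 at the distal end against -0.101 to -0.0573.

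Gain set apart 1 tumor in each of 4 models. The share of gained probes was 89.7% in H2N53 against 0 to 1.16% in the other MMTV-Her2/neu tumors, 100% in C3TAg_5RPT against 0 to 0.4% in the other C3(1)-Tag tumors and 83% in P53_5809 against 3.08 to 6.84% in the other p53-/- tumors. In Hras_An3_3 it was 0.2%, a single segment of 5 probes, where the other MMTV-HRas tumors had 0%. Around Arid1a, PyMt_3 was at -1.04 against -0.0888 to 0.256 in the other 8 MMTV-PyMT tumors.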

How the results depend on the processing

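Over the main comparisons of the report, 590 values under alternatives kept their direction and stayed within the spread or within 1.5 times the count reported. A further 37 moved and 12 reversed. Over its other results, such as the counts of loss and gain by model, 439 stayed, 56 moved and 3 reversed. Many of these alternatives left out a single tumor. The cause of the changes was not tested. With the dyes as labelled every sign turned. Losses then numbered 5, gains 8 and the rank by loss was 14. The model differences became 0.016 for MMTV-Myc, -0.028 for MMTV-PyMT, -0.066 for BRCA1, -0.111 for MMTV-Her2/neu, 0.142 for MMTV-HRas, 0.175 for C3(1)-Tag, -0.072 for p53-/- and -0.027 for MMTV-Wnt1. The 2 BRCA1 bins and the 1 MMTV-Wnt1 bin were called lower, and the Skint probes of MMTV-Wnt1 tumors averaged -2.36, PyMt_3 around Arid1a 1.04 and Brcap53_682 at the distal end 0.627. The MMTV-Myc difference also turned to 0.0025 with medians over probes, and ranged from -0.0286 to 0.000605 when a tumor was left out.

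Tumors with loss numbered 22 with a running median, 4 when a segment had to exceed 1.5 times the probe SD and 3 by the authors' intervals. Tumors with gain numbered 3 without the near-identical tumors, 3 at a threshold of 0.3 and 1 at 1.5 times the probe SD. Leaving out a tumor gave 7 to 8 losses, 4 to 5 gains and 1 to 2 tumors whose distal and proximal parts differed, 1 without Brca_14 or without Brca_54. The 512 breakpoints fell to 103 with normexp background correction, 277 with bright probes and 53 between segments of at least 20 probes, a number that went down to 19 in turn under the lowest alternative.

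Bins called on chromosome 4 depended on the setting. For BRCA1 tumors they numbered 1 with the density-peak centre, with the centre taken without chromosome 4, with 2 Mb bins, without Wnt_4635 and without PyMT_11567 and PyMT_11570, 0 with normexp and with array weights, 7 without the near-identical tumors and 0 to 12 when a tumor was left out. For MMTV-Wnt1 tumors they numbered 0 with normexp, with bright probes and with 2 Mb bins and 10 with array weights, which also gave 3 for MMTV-Myc and 12 for MMTV-Her2/neu. For p53-/- tumors they numbered 1 with slide as a random block and without the near-identical tumors, and 0 to 2 when a tumor was left out. By replicate number, no paired analysis was possible because the replicate numbers were given in accession order and pair no tumors. Tumors of different models that shared a slide or scan date were compared by the permutation within slides and within dates. Dim probes, the noise of single arrays and 5 to 9 tumors a model limit these values.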
